A study of Homo sapiens with 6 samples.

Results

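The mitochondrial ribosomal proteins were taken as every row of the deposited expression table whose gene symbol was MRPL or MRPS followed by a number, with an optional letter A, B or C on the MRPS symbols. The rule used symbols and no measured value, and it found 78 of the 27788 symbols in the table. All 78 passed the filter on low values used for testing, a mean of at least 1 FPKM (fragments scaled by transcript length and library depth) over the 6 libraries.

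The libraries came from BJ, an established human fibroblast line of foreskin origin, taken on day 8 after lentiviral infection with a pair of polycistronic constructs named O2S and K2M. Together these express OCT4, SOX2, KLF4 and MYC, and all 3 groups carried them. Cells were stained for the surface proteins CD13 (gene ANPEP) and CD201 (gene PROCR) and sorted. The double-negative group lacked both proteins, the CD201-only group lacked CD13 and carried CD201, and the double-positive group carried both. Each group had 2 libraries of poly-A RNA, and nothing in the labels says that they came from separate infections, so p-values measure the spread between these libraries, which may be technical. The cells of a group were selected as a bulk population, so a group can hold infected and uninfected cells and cells at different stages. No library of uninfected BJ cells was analysed here.

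Mitochondria have ribosomes of their own, which translate the few mRNAs encoded by mitochondrial DNA into core subunits of the respiratory chain and of ATP synthase. Their rRNAs come from mitochondrial DNA, but their proteins are encoded by nuclear genes, made on cytosolic ribosomes and imported. The large subunit (MRPL genes) forms the peptide bond, and the small subunit (most MRPS genes) decodes the mRNA. Some proteins have a counterpart in bacterial ribosomes and others are found in mitochondrial ribosomes but not in bacterial ones. Nuclear respiratory factor 1 (NRF1), the ETS-family factor GABPA and YY1 are known regulators of nuclear genes for mitochondrial proteins.

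RefSeq promoter windows of GRCh38.p14, each from 250 bases before to 50 bases after the annotated transcription start, matched 69 of the 78 members by symbol. Each window was searched on both strands for the letters GCGC, A, any base, GCGC (NRF1), CCGGAAG (ETS factors such as GABPA), AAGATGGCG (YY1) and CACGTG (E-box, the core bound by MYC with MAX). In none of the 69 windows did matches of different motifs share bases. The ETS letters stood in 29 windows (42.0%), against 19.6% of the 9439 tested genes with a window and 10.7% of all 27305 windows. The YY1 letters stood in 13 windows (18.8%), against 4.09% of tested genes and 1.85% of all windows. In 10 of those 13 the YY1 letters began within the first 50 transcribed bases, and in tested genes with the letters that share was 71.2%. The NRF1 letters stood in 8 windows (11.6%), against 11.9% of tested genes and 6.29% of all windows. The E-box stood in 6 windows (8.70%), against 10.3% and 7.44%. A match describes letters in a window and shows neither binding nor its absence.

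Some windows are printed 5′ to 3′ on the strand of the gene, in lower case with motif matches in capitals. MRPL48 and MRPS33 had among the largest rises, MRPL17 and MRPS6 fell, and MRPS18A, a paralog of MRPS18B and MRPS18C, holds both the ETS and the YY1 letters. MRPS33 holds the NRF1 letters and the ETS letters on its other strand, MRPL48 the ETS letters on its other strand, MRPL17 the NRF1 letters, and MRPS6 none of the 4.
MRPL48 chr11:73787624-73787923 (plus strand): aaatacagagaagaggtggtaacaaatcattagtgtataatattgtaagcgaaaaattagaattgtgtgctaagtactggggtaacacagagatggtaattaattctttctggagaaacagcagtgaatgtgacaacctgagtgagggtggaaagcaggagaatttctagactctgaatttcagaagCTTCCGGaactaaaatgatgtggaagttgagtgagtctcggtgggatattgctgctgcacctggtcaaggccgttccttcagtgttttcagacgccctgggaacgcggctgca
MRPS33 chr7:141014903-141015202 (minus strand): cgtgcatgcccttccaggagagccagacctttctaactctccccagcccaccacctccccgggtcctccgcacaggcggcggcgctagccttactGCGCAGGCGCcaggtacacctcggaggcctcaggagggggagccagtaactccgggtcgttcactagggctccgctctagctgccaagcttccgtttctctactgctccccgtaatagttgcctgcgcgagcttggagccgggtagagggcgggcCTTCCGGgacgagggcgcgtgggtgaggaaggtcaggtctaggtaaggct
MRPS18A chr6:43687742-43688041 (minus strand): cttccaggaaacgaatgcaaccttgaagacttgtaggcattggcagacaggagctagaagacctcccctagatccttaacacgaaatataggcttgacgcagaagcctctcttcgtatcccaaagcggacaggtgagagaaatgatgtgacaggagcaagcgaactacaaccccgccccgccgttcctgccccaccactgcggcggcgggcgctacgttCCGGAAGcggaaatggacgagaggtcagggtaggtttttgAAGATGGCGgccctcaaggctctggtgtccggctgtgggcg
MRPL17 chr11:6683291-6683590 (minus strand): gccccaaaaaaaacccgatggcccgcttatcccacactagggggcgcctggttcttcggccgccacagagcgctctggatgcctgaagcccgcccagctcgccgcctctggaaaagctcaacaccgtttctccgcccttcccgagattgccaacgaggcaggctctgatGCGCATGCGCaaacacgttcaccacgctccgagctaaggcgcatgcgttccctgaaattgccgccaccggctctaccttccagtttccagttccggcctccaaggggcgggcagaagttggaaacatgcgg
MRPS6 chr21:34073328-34073627 (plus strand): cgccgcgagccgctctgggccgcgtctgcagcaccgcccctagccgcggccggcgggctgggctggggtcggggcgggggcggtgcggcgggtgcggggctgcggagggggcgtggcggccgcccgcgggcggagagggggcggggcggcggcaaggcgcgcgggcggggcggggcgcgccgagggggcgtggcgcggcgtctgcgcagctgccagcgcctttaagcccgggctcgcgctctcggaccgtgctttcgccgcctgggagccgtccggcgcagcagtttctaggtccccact

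Members with and without the letters can be set side by side. Between double-negative and double-positive cells the 29 members with the ETS letters had a median log2 change of 0.24, and so had the 40 without. The 13 members with the YY1 letters had a median of 0.14, against 0.26 for the 56 without, and the 8 with the NRF1 letters 0.16, against 0.24 for the 61 without. These medians are descriptions and were not tested.

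FPKM, which are already scaled for depth, summed to between 489152 and 521352 a library. Relative depth, read from the smallest values, ran between 0.733 for the first double-positive library and 1 for the second CD201-only library, and 11983 to 12168 genes reached 1 FPKM. Counts were not used here, so no counting interval can be given. ANPEP had 35.7 and 36.2 FPKM in double-negative, 29.1 and 28.7 in CD201-only and 157.8 and 152.7 in double-positive libraries. PROCR had 16.6 and 18.0, 45.8 and 49.1, and 51.3 and 52.5 FPKM in the same order of groups. Summed FPKM of 8 fibroblast markers lay at 4210 to 4211 in double-negative, 3746 to 3767 in CD201-only and 8400 to 8506 in double-positive libraries. The 6 pluripotency markers summed to 93.4 to 98.2, 59.6 to 60.2 and 27.9 to 28.2, and the 4 epithelial markers to 3052 to 3063, 3961 to 4031 and 2008 to 2075. The 4 endothelial markers summed to 14.1 to 14.6, 25.3 to 27.1 and 19.1 to 21.0. Of the blood markers, 4 summed to 20.3 to 21.0, 8.31 to 9.86 and 32.9 to 33.8, with CD3E at 0 in all 6 libraries. Only 1 of the 4 endothelial and 1 of these 4 blood markers had a mean of at least 1 FPKM. Their sums therefore do not describe the endothelial or blood list as a whole. Of the 6 pluripotency markers, 4 had a mean of at least 1 FPKM. The part of this makeup in the results on mitochondrial ribosomal proteins was not tested. In bulk libraries, fewer cells of a type and less RNA per cell cannot be told apart.

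The members differed 85.2-fold in mean FPKM, which is corrected for transcript length, although most of their proteins enter the ribosome in single copy. Their median was 44.7 FPKM, against 10.1 FPKM for all 12210 genes tested. MRPL51, a large-subunit protein without a bacterial counterpart, was highest, with 225.4 and 237.6 FPKM in double-negative, 228.4 and 226.0 in CD201-only and 198.6 and 190.7 in double-positive libraries. MRPL12, the protein of the flexible stalk that receives translation factors, followed with a mean of 193.9 FPKM, and MRPL20, a large-subunit protein with a bacterial counterpart, had 168.0 FPKM.

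The members under 5 FPKM numbered 5, MRPL1, MRPL42, MRPL50, MRPL47 and MRPL13, which are named here by that level. MRPL1, of the mobile stalk beside the tRNA exit site, was lowest with a mean of 2.56 FPKM, next to MRPL42 with 2.60 and MRPL50 with 3.76. Replicates of these 5 were far apart: the median coefficient of variation was 21.9% for double-negative, 6.93% for CD201-only and 15.6% for double-positive libraries, where over all members it was 2.22%, 1.72% and 3.29%. A further 14 members lay between 5 and 20 FPKM, 49 between 20 and 100, and 10 at 100 or above. The 51 large-subunit members had a median of 49.98 FPKM and the 26 small-subunit members 31.3 FPKM. The 30 members without a bacterial counterpart had a median of 30.5 FPKM, against 54.5 FPKM for the 48 with a counterpart. The 30 include MRPS36, which is not in the ribosome structure.

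The level of a member went with the base composition of its transcript. Across the 78 members, mean log2 level and GC content had a Spearman rho of 0.765, given as a description over genes measured in the same libraries. GC content ran between 35.0% and 72.0%, and the 5 members under 5 FPKM were all among the 26 lowest in GC content. Level and transcript length had a rho of -0.42. GC content and length are those of the longest annotated transcript of a gene, which need not be the transcript expressed here.

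**Figure D1:**
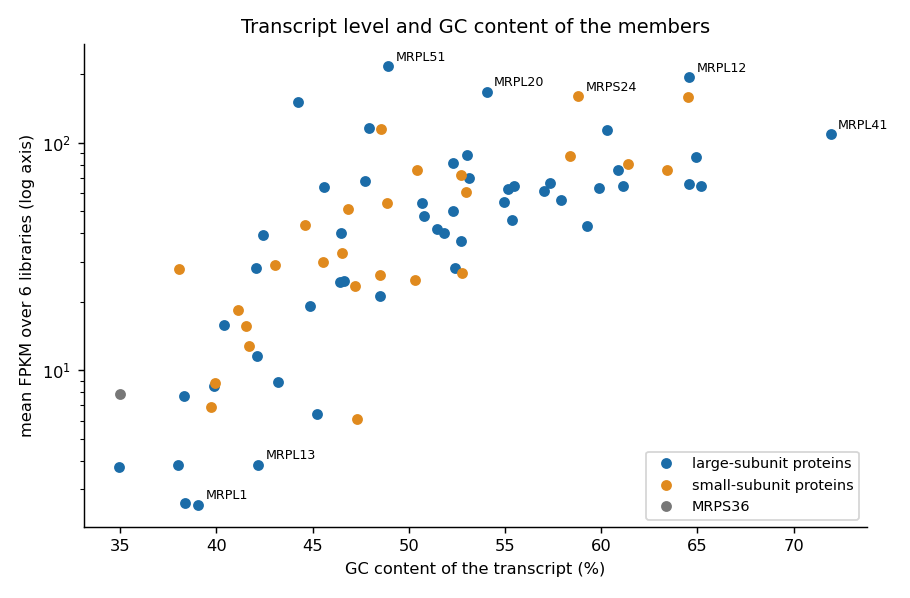
Mean FPKM over the 6 libraries (log axis) against GC content of the transcript in percent, 1 point per member, blue for large-subunit proteins, orange for small-subunit proteins and grey for MRPS36. Levels rise with GC content (Spearman rho 0.765, n = 78), and MRPL1 at 2.56 FPKM and MRPL51 at 217.8 FPKM mark the ends of the range.

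Most mitochondrial ribosomal protein genes had higher FPKM in double-negative than in double-positive cells. FPKM are relative to the RNA of a library and do not give the amount of mRNA per cell. Of the 78 members, 54 were called higher (an adjusted p under 0.05), 3 lower and 21 in neither direction, where over all genes tested 42.1% were called higher, 24.5% lower and 66.6% in either direction. The median log2 change of the members was 0.23, against 0.11 over all genes tested, and it ran between -0.54 for MRPS6 and 0.64 for MRPL48. The summed FPKM of the members was 4337 and 4402 in double-negative libraries, against 3865 and 3803 in double-positive libraries, a ratio of means of 1.14. These sums were 0.852% and 0.784% of all FPKM. Log2 changes are of FPKM plus 1 and understate the fold change of members at a few FPKM.

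In CD201-only cells, too, most of these genes had higher FPKM than in double-positive cells. Here 54 members were called higher, 2 lower and 22 in neither direction, where over all genes tested 35.8% were called higher, 22.9% lower and 58.7% in either direction. The median log2 change was 0.23, against 0.08 over all genes. The members summed to 4495 and 4435 FPKM in CD201-only libraries, against the same 3865 and 3803 in double-positive libraries, a ratio of 1.17. Both comparisons rest on the same double-positive libraries, so their results are not independent.

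Between the CD13-negative groups few members differed. In double-negative relative to CD201-only cells 2 members were called higher, 11 lower and 65 in neither direction, where over all genes 21.5% were called higher, 16.5% lower and 37.9% in either direction. The median log2 change was -0.00256 (0.0206 after scaling the libraries to the same sum), against 0.04 over all genes, and the ratio of sums was 0.979. By the F test 59 of the 78 members differed among the 3 groups, where over all genes tested 73.0% did, a share near that of the members.

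**Figure D2:**
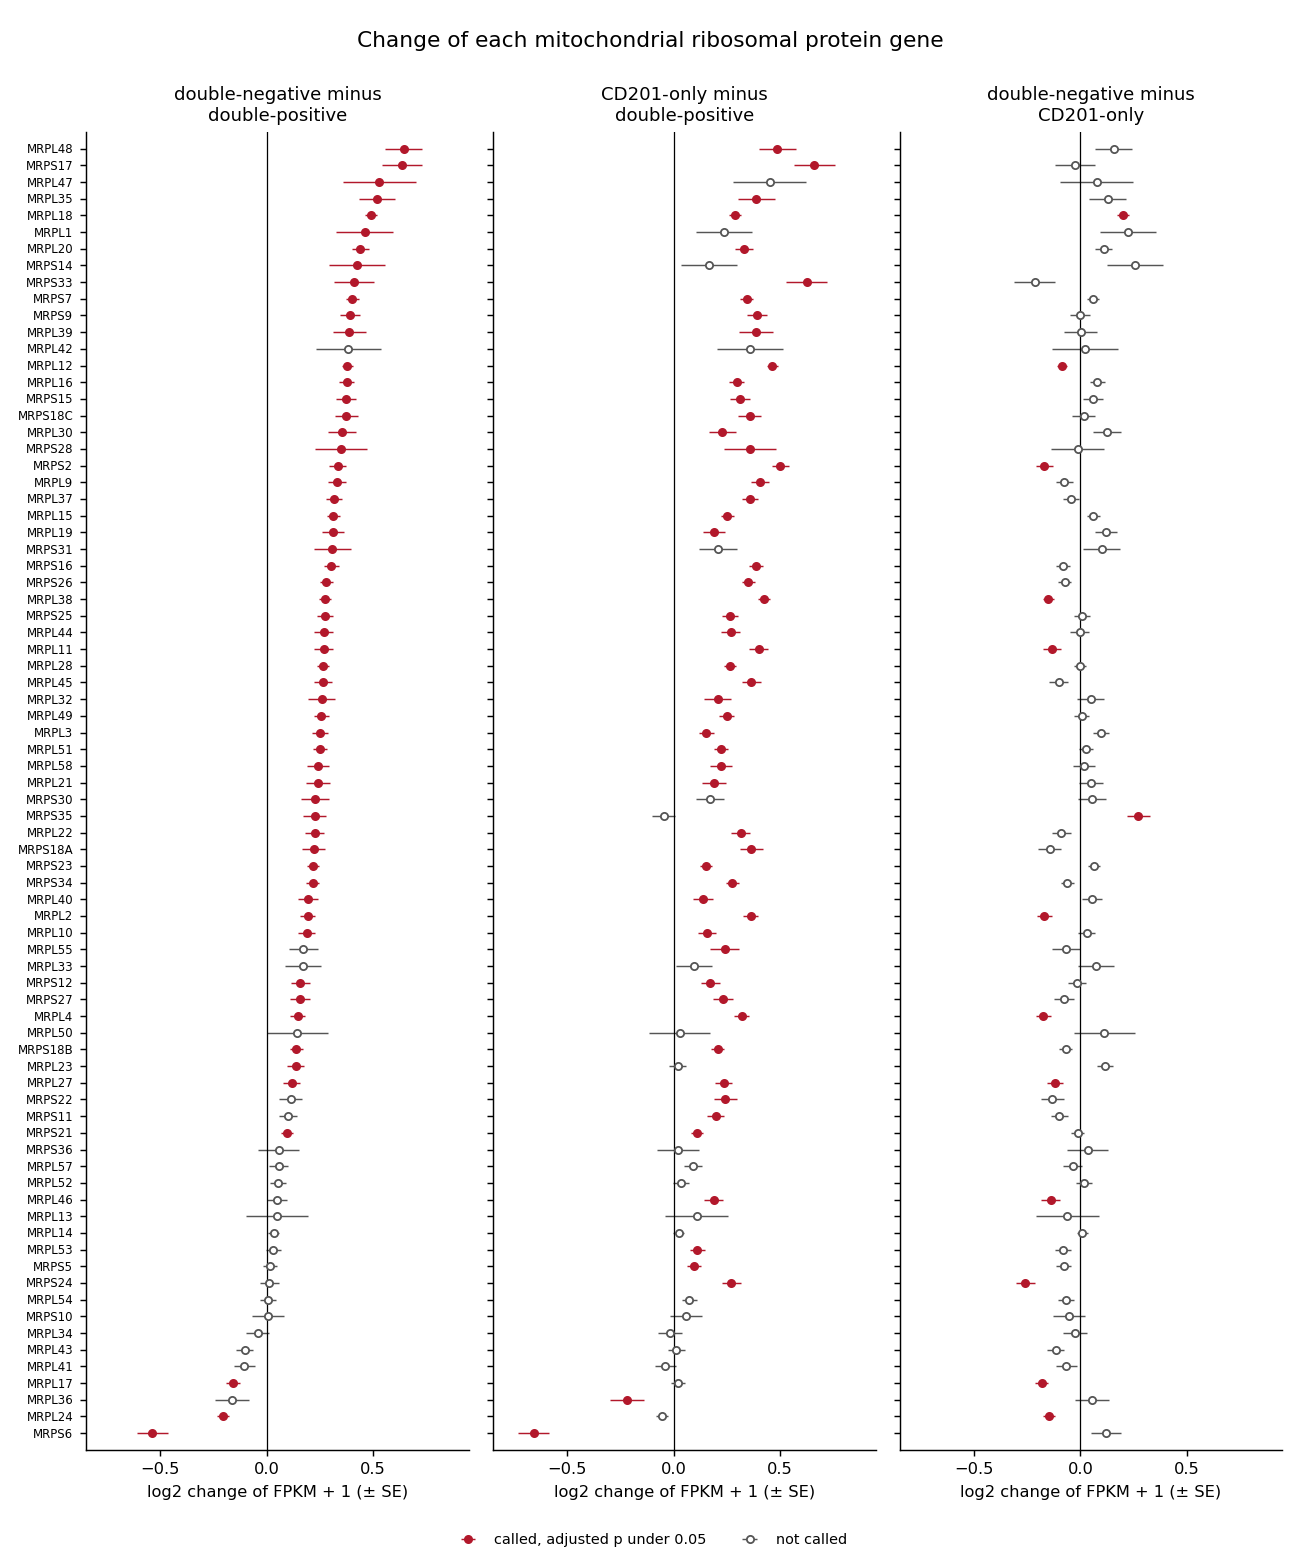
Log2 change of FPKM plus 1 with its standard error for each of the 78 members (rows, ordered by the first panel) in the 3 comparisons, red where called at an adjusted p under 0.05 and open where not. In both comparisons with double-positive cells 54 points are red and to the right of 0, with MRPS6 far to the left, and in double-negative relative to CD201-only cells most points are open and near 0.

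The size of these counts depended on how the libraries were scaled. Rescaling by median ratios brought the median change of all genes in double-negative relative to double-positive cells to 0.00 and the share of higher among all called genes to 48.3%, against 63.2% for the deposited values. The members were then 33 higher and 10 lower, with a median of 0.11, and 56 of 78 stood above the median of all genes. In CD201-only relative to double-positive cells the members were then 38 higher and 3 lower, with a median of 0.15, and the share of higher among all calls was 48.1%, against 61.0%. Relative to CD201-only cells, double-negative cells then had 2 members higher and 21 lower. Over all genes tested, 29.9% were then called higher and 31.9% lower in double-negative relative to double-positive cells. The shares were 26.4% and 28.5% in CD201-only relative to double-positive cells, and 17.7% and 19.9% in double-negative relative to CD201-only cells.

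Both subunits contributed. Of 51 large-subunit members, 34 were called higher and 2 lower in double-negative than in double-positive cells, and of 26 small-subunit members 20 were higher and 1 lower. In CD201-only relative to double-positive cells the counts were 33 higher and 1 lower for the large subunit and 21 higher and 1 lower for the small subunit. The summed FPKM of the large subunit over that of the small subunit was 2.21 and 2.20 in double-negative, 2.15 and 2.16 in CD201-only and 2.17 and 2.19 in double-positive libraries. After median-ratio rescaling the large subunit had 21 higher and 8 lower in double-negative and 22 and 2 in CD201-only cells, and the small subunit 12 and 2, and 16 and 1. The proteins with bacterial counterparts were called higher in 35 of 48 cases in each comparison with double-positive cells. The other members, MRPS36 among them, were called higher in 19 of 30 cases in each. After rescaling these were 20 and 13 in double-negative and 24 and 14 in CD201-only cells. Over all genes tested 42.1% were called higher in double-negative and 35.8% in CD201-only relative to double-positive cells, and 29.9% and 26.4% after rescaling. The counts by part of the ribosome that follow are to be read beside the same shares.

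At the factor-binding stalk, which recruits the initiation and elongation factors, 3 of 5 members were higher in double-negative than in double-positive cells and 4 of 5 in CD201-only than in double-positive cells. After median-ratio rescaling 2 of 5 were higher in each comparison and 1 was lower in double-negative cells. MRPL12 had 207.4 and 203.6 FPKM in double-negative, 221.5 and 215.0 in CD201-only and 157.3 and 158.3 in double-positive libraries. No library of either CD13-negative group overlapped the double-positive libraries. Its log2 change was 0.38 ± 0.02 (SE, adjusted p = 1.45e-05) in double-negative and 0.47 ± 0.02 (adjusted p = 6.63e-06) in CD201-only relative to double-positive cells, and both were called under all 17 alternatives tried. In double-negative relative to CD201-only cells it was called lower at -0.09 and turned to 0.06, not called, when corrected for GC content. MRPL11, at the base of the stalk, had 48.3 and 49.0 FPKM in double-negative, 53.1 and 53.7 in CD201-only and 42.0 and 38.5 in double-positive libraries.

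For the deposited values, 4 of 4 members that line or approach the peptidyl transferase centre, where the peptide bond forms, were called higher in both groups than in double-positive cells. Both after median-ratio rescaling and after GC correction, 2 of 4 were called in double-negative and 3 of 4 in CD201-only cells, and in double-negative cells 1 of the estimates turned slightly negative. MRPL16 had 60.4 and 60.4 FPKM in double-negative, 55.5 and 58.7 in CD201-only and 46.0 and 46.6 in double-positive libraries, with no overlap between any pair of groups. Its log2 change was 0.38 ± 0.03 (adjusted p = 7.74e-05) and 0.30 ± 0.03 against double-positive cells. MRPL2, which helps to place the tRNAs, had 45.6 and 46.0, 52.6 and 50.7, and 39.2 and 40.7 FPKM in the same 3 groups. It was highest in CD201-only cells, and lower in double-negative than in CD201-only cells by a log2 change of -0.17 ± 0.03 (adjusted p = 0.00802).

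Of the 6 members of the central protuberance, the crown of the large subunit near the tRNAs, 5 were higher in double-negative and 6 in CD201-only than in double-positive cells. After median-ratio rescaling 3 of 6 were higher in each. MRPL48 had 8.13 and 7.39 FPKM in double-negative, 6.72 and 6.996 in CD201-only and 4.20 and 5.03 in double-positive libraries. Its ratio of means was 1.68 for double-negative over double-positive cells, with a log2 change of 0.64 ± 0.09 (adjusted p = 5.06e-04), called under all 17 alternatives. MRPL18, which binds the RNA of the protuberance, had 132.8 and 137.3, 116.9 and 118.1, and 94.5 and 97.4 FPKM, and the 3 groups did not overlap. It was called in all 3 comparisons under all 17 alternatives, including higher in double-negative than in CD201-only cells (by 0.20 ± 0.03 in log2, adjusted p = 0.00177).

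Of the other members of the protuberance, MRPL38 and MRPL46 leaned to CD201-only cells. MRPL40 and MRPL58 were not called between the CD13-negative groups, with estimates of 0.06 and 0.02 in double-negative relative to CD201-only cells. MRPL38 had 67.6 and 67.4 FPKM in double-negative, 75.4 and 74.6 in CD201-only and 56.3 and 54.9 in double-positive libraries, and it was called lower in double-negative than in CD201-only cells (-0.15 ± 0.03), a difference that was -0.01 and not called after GC correction. MRPL46 had 27.4 and 27.7, 31.3 and 29.7, and 25.7 and 27.6 FPKM. Its fall in double-negative relative to CD201-only cells (-0.14, adjusted p = 0.0481) was called under 7 of 17 alternatives.

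The proteins around the polypeptide exit, where new chains leave toward the inner membrane, included both rises and falls. Of the 8, 6 were higher and 2 lower in double-negative than in double-positive cells for the deposited values, 3 and 2 after median-ratio rescaling and 2 and 2 after GC correction. MRPL17 had 62.2 and 63.6 FPKM in double-negative, 70.8 and 72.1 in CD201-only and 68.8 and 72.0 in double-positive libraries. MRPL24 had 50.2 and 50.5, 56.6 and 55.3, and 58.2 and 58.2 FPKM. For both genes the double-negative libraries were the lowest, and for MRPL17 the other two groups overlapped. MRPL17 fell by 0.16 and MRPL24 by 0.20 on the log2 scale (adjusted p = 0.00404 and 5.94e-04), under all 17 alternatives, and both were also lower in double-negative than in CD201-only cells under all 17.

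At the same site MRPL39 had 13.5 and 11.7 FPKM in double-negative, 12.4 and 12.7 in CD201-only and 8.86 and 9.90 in double-positive libraries. Its log2 change in CD201-only relative to double-positive cells was 0.39 ± 0.08 (adjusted p = 0.00465). MRPL47 had 3.51 and 5.57, 4.61 and 3.75, and 2.73 and 2.82 FPKM. The spread of its double-negative libraries was wider than the distance between the means of the groups, and its rise of 0.53 ± 0.17 (adjusted p = 0.0291) was called under 9 of 16 alternatives. MRPL1, the stalk protein at the tRNA exit site, had 3.63 and 2.66, 2.84 and 2.24, and 1.98 and 2.00 FPKM. Its rise in double-negative relative to double-positive cells (0.46 ± 0.13, adjusted p = 0.0185) was called under 11 of 16.

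The remaining 25 large-subunit members with MRPL symbols had 13 higher and 0 lower in double-negative and 14 higher and 1 lower in CD201-only relative to double-positive cells. After median-ratio rescaling these were 10 and 5, and 9 and 1. MRPL35 had 9.98 and 9.81 FPKM in double-negative, 8.69 and 9.26 in CD201-only and 5.98 and 7.30 in double-positive libraries, a log2 change of 0.52 ± 0.09 (adjusted p = 0.00147) in double-negative relative to double-positive cells. MRPL20 had 188.3 and 190.1, 175.5 and 175.2, and 132.9 and 145.7 FPKM, a change of 0.44 ± 0.04 (adjusted p = 8.50e-05). In both, the 3 groups were in the order double-negative, CD201-only, double-positive with no overlap between neighbours, and neither differed between the CD13-negative groups by the test.

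MRPL9, a bacterial-type protein that reaches out from the large subunit, had 38.5 and 39.7 FPKM in double-negative, 40.9 and 41.6 in CD201-only and 29.9 and 32.0 in double-positive libraries. Its change in CD201-only relative to double-positive cells was 0.41 ± 0.04 (adjusted p = 1.59e-04). MRPL4 had 84.4 and 87.0, 99.4 and 94.4, and 78.7 and 76.0 FPKM and was lower in double-negative than in CD201-only cells (-0.17 ± 0.04, adjusted p = 0.00869). That difference was -0.03 and not called after GC correction. MRPL36 had 66.4 and 58.7, 58.5 and 61.8, and 75.4 and 65.2 FPKM, and its fall in CD201-only relative to double-positive cells (-0.22 ± 0.08) had an adjusted p of 0.04999 and was called under 11 of 17 alternatives. MRPL42 had 2.60 and 3.25, 2.99 and 2.71, and 1.57 and 2.50 FPKM and MRPL50 3.36 and 4.78, 3.68 and 3.61, and 3.17 and 3.96 FPKM, and neither was called in any comparison.

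In the body and platform of the small subunit, which hold the mRNA path and the decoding site, 14 of 18 members were higher and 1 lower in double-negative than in double-positive cells, and 17 of 18 higher and 1 lower in CD201-only cells. After median-ratio rescaling these were 9 and 2, and 12 and 1. MRPS17 had 6.81 and 7.14 FPKM in double-negative, 7.67 and 6.61 in CD201-only and 4.51 and 3.77 in double-positive libraries. Its log2 change was 0.64 ± 0.09 (adjusted p = 8.49e-04) and 0.66 ± 0.09 (adjusted p = 8.46e-04) against double-positive cells, the largest of the members in CD201-only cells, under all 17 alternatives. In the GENCODE annotation an exon of MRPS17 overlaps exons of NIPSNAP2 on the same strand. MRPS2 had 82.6 and 83.7, 97.4 and 89.9, and 65.3 and 66.2 FPKM, with no overlap between groups, and rose by 0.50 ± 0.04 (adjusted p = 4.51e-05) in CD201-only relative to double-positive cells. It was lower in double-negative than in CD201-only cells (-0.17 ± 0.04, adjusted p = 0.0155), but by -0.05 and not called after GC correction.

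MRPS6, a platform protein, had the largest fall of the members in both comparisons with double-positive cells. It had 44.4 and 52.5 FPKM in double-negative, 43.9 and 44.8 in CD201-only and 72.5 and 68.7 in double-positive libraries. The double-positive libraries stood apart from the other four, which overlapped. Its log2 change was -0.54 ± 0.07 (adjusted p = 5.03e-04) in double-negative and -0.66 ± 0.07 (adjusted p = 2.23e-04) in CD201-only relative to double-positive cells, under all 17 alternatives. MRPS6 shares exons on the same strand with SLC5A3, the gene of a sodium and myo-inositol cotransporter, in the GENCODE annotation. How the authors' counting assigned fragments in that overlap is not given in the sources used here, so the 2 genes cannot be told apart there.

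In the head of the small subunit, which moves with the tRNAs, 6 of 8 members were higher in double-negative and 4 of 8 in CD201-only than in double-positive cells for the deposited values. Both after median-ratio rescaling and after GC correction these were 3 of 8 and 4 of 8. MRPS33 had 12.1 and 14.3 FPKM in double-negative, 15.7 and 15.2 in CD201-only and 8.87 and 10.5 in double-positive libraries, a change of 0.63 ± 0.10 (adjusted p = 0.00117) in CD201-only relative to double-positive cells. MRPS14 had 10.3 and 10.3, 7.92 and 9.01, and 6.26 and 8.76 FPKM. Its rise in double-negative relative to double-positive cells (0.42 ± 0.13, adjusted p = 0.0249) was called under 11 of 17 alternatives.

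A pair of head proteins moved in opposite directions between the CD13-negative groups. MRPS35 had 20.8 and 20.4 FPKM in double-negative, 16.0 and 17.8 in CD201-only and 17.3 and 17.6 in double-positive libraries and was higher in double-negative than in CD201-only cells (0.27 ± 0.05, adjusted p = 0.00732). MRPS24, which lies at the mRNA entry, had 145.6 and 155.5, 187.0 and 173.8, and 151.4 and 147.0 FPKM and was lower in double-negative than in CD201-only cells (-0.26 ± 0.04, adjusted p = 0.00408). MRPS24 was high in CD201-only cells alone, and its double-negative and double-positive libraries overlapped. After GC correction the MRPS35 difference was 0.11 and not called, and that of MRPS24 was -0.17 and called. The annotation holds a readthrough transcript of URGCP and MRPS24 on the same strand, which shares its exons.

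MRPS18A, MRPS18B and MRPS18C descend from the same bacterial protein, S18, and occupy different places, MRPS18A in the large subunit and the other two in the small one. MRPS18A had 66.1 and 68.1 FPKM in double-negative, 75.03 and 73.5 in CD201-only and 61.0 and 54.1 in double-positive libraries. MRPS18B had 74.95 and 71.9, 77.0 and 77.0, and 66.2 and 66.9 FPKM, and MRPS18C 31.2 and 29.7, 31.1 and 29.2, and 22.3 and 24.4 FPKM. All 3 were higher in both groups than in double-positive cells, by 0.22, 0.14 and 0.37 in double-negative and 0.37, 0.21 and 0.36 in CD201-only cells in the order A, B, C. After median-ratio rescaling the rises of MRPS18A (0.10) and MRPS18B (0.02) in double-negative cells were not called. For the deposited values none of the 3 was called between the CD13-negative groups. Under some alternatives calls appeared there, among them MRPS18A lower in double-negative cells after median-ratio rescaling (-0.18) and MRPS18C lower after GC correction. The changes were not tested against each other. MRPS30, the second protein with a small-subunit symbol that sits in the large subunit, had 25.2 and 26.8, 26.8 and 23.3, and 22.4 and 21.7 FPKM and was called in double-negative cells (0.23 ± 0.07, adjusted p = 0.0195). After median-ratio rescaling its rise (0.11) was not called. MRPS36, whose protein is now placed in the 2-oxoglutarate dehydrogenase complex and not in the ribosome, had 7.24 and 8.96, 8.01 and 7.68, and 8.14 and 7.31 FPKM, and its groups overlapped in all 3 comparisons.

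**Figure D3:**
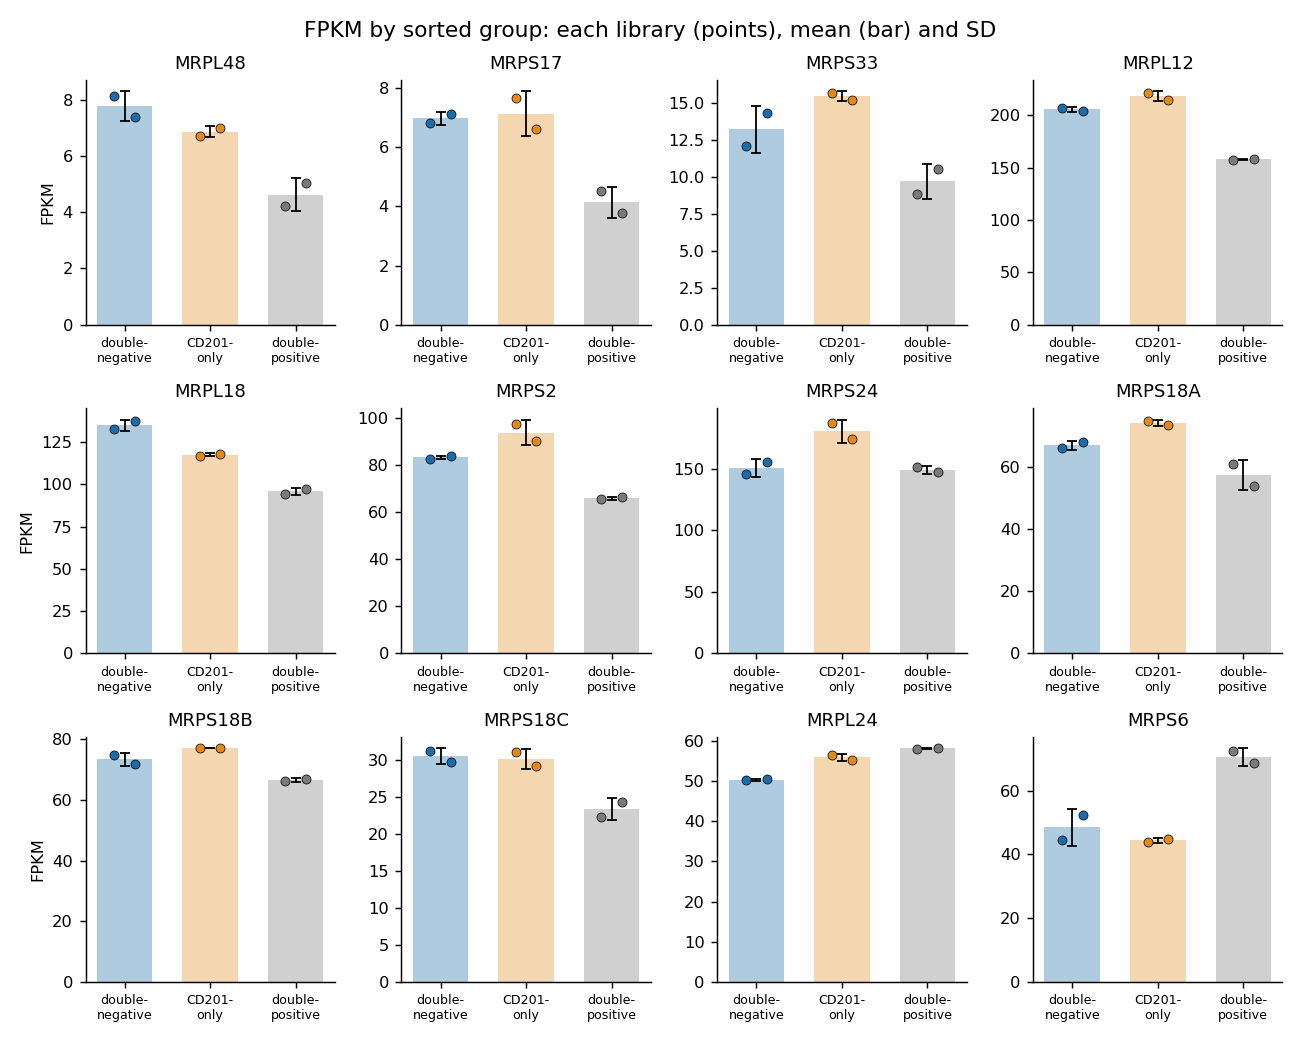
FPKM of 12 members in double-negative, CD201-only and double-positive libraries, left to right, with points for the 2 libraries of a group, bars for their mean and error bars for the SD. MRPL48 and MRPS17 are lowest in double-positive cells, MRPS24 is highest in CD201-only cells, MRPL24 is lowest in double-negative cells, and MRPS6 is highest in double-positive cells.

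Part of the pattern went with base composition. In double-negative relative to double-positive cells the log2 change of the members fell with the GC content of the transcript (Spearman rho -0.34 over 78 members), as it did over all tested genes (-0.33). In CD201-only relative to double-positive cells the values were -0.05 and -0.08, and in double-negative relative to CD201-only cells -0.43 and -0.42. A correction that removes the trend with GC content in each library, chosen after the data were seen, left 40 members higher and 3 lower in double-negative relative to double-positive cells (median 0.17), and 50 higher and 1 lower in CD201-only relative to double-positive cells (median 0.22). Over all genes tested the corrected shares were 36.7% higher and 25.5% lower (median 0.06) in the first comparison. In the second they were 35.7% and 23.1% (median 0.07). In double-negative relative to CD201-only cells, 7 members were higher and 14 lower after the correction, against 2 and 11 for the deposited values. Over all genes tested 19.03% were then higher and 15.95% lower.

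The correction changed which members were called. Of the 26 members lowest in GC content (35.0% to 45.6%), 20 were called higher in double-negative relative to double-positive cells for the deposited values and 4 after correction. Of the 26 highest in GC content (53.0% to 72.0%), 17 were called for the deposited values and 22 after correction. In CD201-only relative to double-positive cells the same counts were 15 and 12 for the lowest and 18 and 19 for the highest. The shares of all tested genes in these ranges of GC content are not given here. These counts therefore do not set the members apart from other genes of like composition. Of the 54 members called higher in double-negative relative to double-positive cells, 35 were called higher after the correction, 33 after median-ratio rescaling and 25 under every alternative. Of the 54 in CD201-only relative to double-positive cells, the numbers were 49, 38 and 36. Of the 11 called lower in double-negative relative to CD201-only cells, 3 were called under every alternative. Whether composition is technical or marks the transcripts themselves was not tested.

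**Figure D4:**
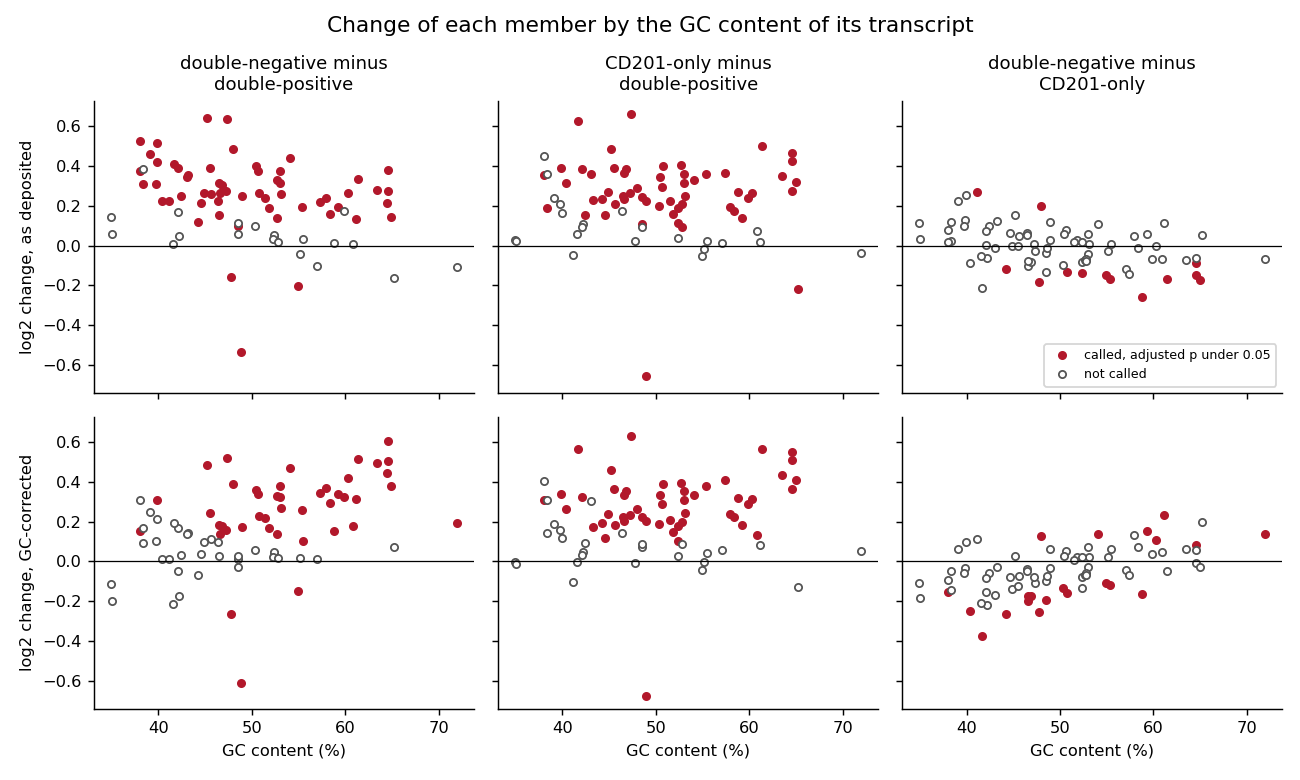
Log2 change of each member against the GC content of its transcript in percent, for the deposited values (top row) and after correction for GC content (bottom row), in the 3 comparisons, red where called and open where not. In double-negative relative to double-positive cells the red points at the GC-poor end number 20 of 26 in the top row and 4 of 26 in the bottom row. Other genes of like GC content are not shown.

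Cytosolic ribosomal proteins, of the ribosome that makes nearly all cell protein, also rose in both groups relative to double-positive cells. Of 76 tested, 70 were higher and 0 lower in double-negative and likewise 70 and 0 in CD201-only relative to double-positive cells, with median log2 changes of 0.31 and 0.33. Mitochondrial ribosomes make some subunits of respiratory complex I, and its nuclear-encoded subunits were taken by symbol (NDUFA, NDUFB, NDUFC, NDUFS and NDUFV). A symbol does not show that each of the 38 genes of this list belongs to complex I. The list had 25 higher and 1 lower (median 0.17) and 26 higher and 1 lower (median 0.14). Of all genes tested, 42.1% and 35.8% were called higher. After median-ratio rescaling complex I had 11 higher and 6 lower, and 8 higher and 1 lower, and cytosolic ribosomal proteins 60 and 0, and 68 and 0. Over all genes tested 29.9% were then higher and 31.9% lower in double-negative cells, and 26.4% and 28.5% in CD201-only cells. The shares of complex I called higher, 28.95% and 21.05%, lay near or below these. The rescaled medians against double-positive cells were 0.19 and 0.25 for cytosolic ribosomal proteins, 0.11 and 0.15 for mitochondrial ribosomal proteins and 0.05 and 0.06 for complex I. The differences between lists were not tested.

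**Figure D5:**
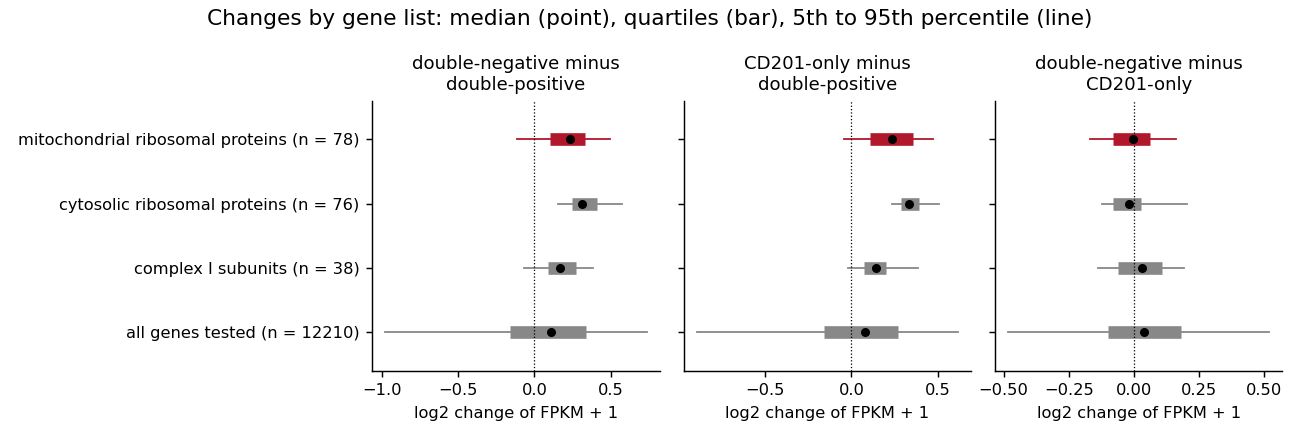
Log2 change of FPKM plus 1 by gene list in the 3 comparisons, with points for the median, thick bars for the quartiles and thin lines from the 5th to the 95th percentile. The median of the mitochondrial ribosomal proteins (0.23 in both comparisons with double-positive cells) lies between those of complex I subunits (0.17 and 0.14) and cytosolic ribosomal proteins (0.31 and 0.33).

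The table held 5 proteins of the mitochondrial ribosome under other symbols, counted apart from the 78. Of these, 2 were higher and 0 lower in double-negative, and 4 higher and 0 lower in CD201-only, than in double-positive cells. For this and the following lists, the shares over all genes tested were 42.1% higher and 24.5% lower in double-negative cells. In CD201-only cells they were 35.8% and 22.9%. PTCD3, an RNA-binding small-subunit protein, had 7.86 and 7.69 FPKM in double-negative, 6.72 and 7.30 in CD201-only and 5.12 and 5.57 in double-positive libraries (log2 changes 0.47 and 0.34 against double-positive cells). CHCHD1, also of the small subunit, had 62.0 and 62.9, 67.9 and 71.4, and 63.6 and 65.7 FPKM and was lower in double-negative than in CD201-only cells (-0.16, adjusted p = 0.0120).

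Of the factors that work on this ribosome, 11 of 12 mitochondrial translation factors passed the filter. Of these, 7 were higher and 1 lower in double-negative relative to double-positive cells, and 6 higher and 1 lower in CD201-only cells. The elongation factor GFM1, which moves the ribosome along, had 18.0 and 18.4 FPKM in double-negative, 16.4 and 16.9 in CD201-only and 12.3 and 12.7 in double-positive libraries (0.52 and 0.39). The initiation factor MTIF3 went the other way, with 12.1 and 11.7, 13.6 and 12.7, and 15.4 and 15.6 FPKM (-0.35 and -0.22). MTIF2, the initiation factor that brings the first tRNA, was higher in double-negative than in CD201-only cells (0.24), and TUFM, which delivers tRNAs, was lower (-0.11). In that comparison 0 of the 11 factors were higher and 3 lower after median-ratio rescaling, and 0 higher and 1 lower after GC correction. The rise of MTIF2 was thus called under neither setting.

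Of 20 assembly factors of the mitochondrial ribosome, 12 were higher and 0 lower in double-negative and 11 higher and 1 lower in CD201-only relative to double-positive cells. TFB1M, which methylates the small-subunit rRNA, had 13.1 and 11.6 FPKM in double-negative, 8.00 and 8.66 in CD201-only and 7.65 and 8.41 in double-positive libraries. It was higher in double-negative than in either other group (0.56 against double-positive, 0.52 against CD201-only cells), while CD201-only and double-positive libraries overlapped. ERAL1, the GTPase that chaperones that rRNA, had 67.2 and 66.8, 72.3 and 73.0, and 52.1 and 53.5 FPKM (0.34 and 0.45 against double-positive cells). NGRN, needed for the large-subunit rRNA, was called lower in CD201-only than in double-positive cells (-0.14), and MTG2, a GTPase of the large subunit, lower in double-negative than in CD201-only cells (-0.25).

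Of 15 genes of mitochondrial transcription, DNA and RNA handling, 10 were higher and 0 lower in each comparison with double-positive cells. TFAM, which packages mitochondrial DNA and starts its transcription, had 12.5 and 12.4 FPKM in double-negative, 11.5 and 11.4 in CD201-only and 7.99 and 7.14 in double-positive libraries (0.65 and 0.55, adjusted p = 7.2e-05 and 2.17e-04). SLIRP, which stabilises mitochondrial mRNA with LRPPRC, had 41.3 and 47.3, 31.8 and 32.4, and 18.8 and 20.1 FPKM, with log2 changes of 1.15 and 0.70, and the groups did not overlap. POLRMT, the mitochondrial RNA polymerase, had 22.1 and 21.5, 22.4 and 21.4, and 20.9 and 19.8 FPKM and was not called in any comparison (0.09 and 0.10).

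Of 9 regulators of mitochondrial gene expression, 8 passed the filter, with 5 higher and 1 lower in each comparison with double-positive cells. NRF1 had 9.72 and 9.63 FPKM in double-negative, 9.04 and 9.63 in CD201-only and 8.14 and 8.09 in double-positive libraries (0.23 and 0.18). PPRC1, a coactivator of the PGC-1 family, had 19.4 and 19.3, 21.4 and 20.3, and 16.0 and 16.1 FPKM (0.25 and 0.36), and GABPB1, the partner of GABPA, rose by 0.32 in double-negative cells. PPARGC1A did not pass the filter, at 0.133 to 0.303 FPKM over the 6 libraries. MYC was the member that fell, with 128.3 and 128.4, 138.3 and 134.8, and 176.3 and 172.8 FPKM (-0.44 and -0.35). MYC is also carried by the K2M construct, and the table does not separate construct from endogenous transcripts.

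The counts of these related lists also moved under median-ratio rescaling. In double-negative relative to double-positive cells there were then 2 higher and 2 lower of the 5 proteins with other symbols, 4 and 1 of 11 translation factors, 8 and 1 of 20 assembly factors, 7 and 1 of 15 transcription, DNA and RNA genes and 2 and 1 of 8 regulators. For CD201-only cells the counts were 2 and 0, 3 and 2, 6 and 1, 7 and 0, and 2 and 1 in the same order of lists. Over all genes tested 29.9% were then higher and 31.9% lower in double-negative cells, and 26.4% and 28.5% in CD201-only cells. The shares of the lists called higher ran between 25% and 46.7%. Regulators stood at 25% in each comparison and translation factors at 27.3% in CD201-only cells, near or below the shares over all genes.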

How the data were processed

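Poly-A RNA libraries (TruSeq stranded, HiSeq, per the labels' protocols) were grouped by the labels' CD13 and CD201 profiles, 2 libraries in each of 3 groups. The deposited values are FPKM, made by the authors with STAR and Cuffnorm on hg19/GRCh37, per the submitters' processing notes. For tool versions, annotation, strand setting and scaling between libraries, the answer is not given in the sources used here; a scaling by Cuffnorm would shift every fold.

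Here, log2(FPKM + 1) was taken for the 12210 genes averaging 1 FPKM or more and fitted in limma 3.58.1 (R 4.3.3) with a variance trend and all 3 groups in 1 model (3 residual and 3.95 prior degrees of freedom). Benjamini-Hochberg adjustment ran over all tested genes in each comparison, with calls at an adjusted p below 0.05. The fit was tested on simulated data. Alternatives were pseudocount 0.1, no filter, a 5 FPKM filter, 3 rescalings, limma without or with a robust trend, only the compared groups, a replicate block, leaving out each library and, added after the data were seen, a correction for transcript GC content. GC content and length came from the longest GENCODE v29 transcript of each symbol, protein-coding transcripts first. These matched 78 of 78 members and 97.9% of tested genes.

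The members, gene lists and tests were chosen with earlier results of these data known, and MRPL57 and MRPL58 were assigned roles once the table showed these symbols. Named members are, per comparison, up to 8 largest called rises and falls, the largest called change of each role group, the 3 highest and 3 lowest levels, and MRPS18A, MRPS18B and MRPS18C. In related lists they are the largest called rise and fall, with TFAM, POLRMT, MYC, NRF1, PPARGC1A and PPRC1. Of the members, 34 have named pseudogenes and 13 share exons with another gene on the same strand in GENCODE v29, so their values depend on how fragments were assigned. Exons of 21 members overlap those of a gene on the opposite strand. Their values depend on the strand setting, which is not given. A blood marker of the fixed lists is not reported here.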

Additional observations from a re-analysis of the deposited data

How the results depend on the processing

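Against double-positive cells the median of the members stayed above 0 under every alternative. In double-negative cells median-ratio rescaling gave 33 members higher and 10 lower (median 0.115), scaling to the same sum 6 lower (median 0.171), quantile normalization 5 lower, and GC correction a median of 0.168. Leaving out 1 library gave 40 to 54 higher and 3 to 7 lower (5 without double-negative replicate 2, 7 without double-positive replicate 2). Over all 12210 genes tested, 3448 were lower after scaling to the same sum and 3266 after quantile normalization. With a library left out, 4226 to 5006 of all genes were higher and 2593 to 2925 lower. In CD201-only cells 1 member was lower without the filter, without the trend and after GC correction, and 1 to 3 when a library was left out (1 without either CD201-only library or double-positive replicate 1). The medians there were 0.153 after median-ratio rescaling and 0.149 after scaling to the same sum. Of all genes, 3222 of 19803 were lower there without the filter and 2751 of 12210 without the trend. After GC correction 2822 were lower, and 2373 to 2651 when a library was left out.

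Between double-negative and CD201-only cells the median was -0.0402 after median-ratio rescaling and -0.0546 after GC correction, and it reversed to 0.0206 after scaling to the same sum. Members lower numbered 21 after median-ratio rescaling, 14 after GC correction, 7 after scaling to the same sum, 7 without the filter and 6 without the trend. Members higher numbered 5 after scaling to the same sum, 7 after GC correction and 5 with only the compared groups. Over all 12210 genes tested, 2954 were higher and 1779 lower after scaling to the same sum. The counts were 2163 and 2430 after median-ratio rescaling, 2324 and 1947 after GC correction and 2789 and 2078 with only the compared groups. Without the trend 1765 of all genes were lower, and without the filter 1905 of 19803. Leaving out 1 library gave 4 to 11 lower, 2 to 5 higher (5 without either double-positive library) and medians of -0.0295 to -0.00256. The count of lower members was 4 without double-negative replicate 1 or CD201-only replicate 1, and 7 without double-negative replicate 2. Of all genes tested, 1302 to 2085 were lower and 1559 to 2787 higher when a library was left out. The causes of these shifts were not tested.

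The estimates of 5 named members changed sign under some setting. In double-negative relative to double-positive cells MRPL50 was -0.112 after GC correction and -0.0603 to 0.346 when a library was left out. In CD201-only relative to double-positive cells MRPL50 was -0.0359 after median-ratio rescaling, -0.0455 after scaling to the same sum, -0.00438 after GC correction and -0.0949 to 0.154 when a library was left out. Between double-negative and CD201-only cells median-ratio rescaling gave -0.00508 for MRPL42, -0.0123 for MRPL51 and -0.0214 for MRPS18C, and quantile normalization -0.0466 for MRPL42. GC correction gave 0.0558 for MRPL12, -0.145 for MRPL42, -0.107 for MRPL50, -0.0305 for MRPL51 and -0.156 for MRPS18C (adjusted p = 0.035 in limma). Leaving out a library gave -0.0952 to 0.142 for MRPL42, -0.0900 to 0.317 for MRPL50, -0.0119 to 0.0644 for MRPL51 and -0.0285 to 0.0605 for MRPS18C. These causes were not tested either.

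With the replicate block 56 members were higher and 3 lower in double-negative and 53 higher and 2 lower in CD201-only relative to double-positive cells, 2 were higher and 9 lower between the CD13-negative groups, and 61 differed by the F test. Over all 12210 genes tested, the block gave 5121 higher and 2989 lower in the first comparison and 4392 and 2797 in the second. Between the CD13-negative groups it gave 2617 and 1973. Same-numbered libraries had deviations correlated at 0.0761, -0.0727 and 0.117 over the 3 pairs of groups, so the numbers were not taken to pair the libraries.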
